A study of Homo sapiens with 6 samples.

Results

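Acidification and digestion in the lysosome were followed here through 45 genes, the subunits of its proton pump and its main enzymes and membrane proteins, in leukaemia cells treated with TSN. The genes were chosen by symbol. They comprise 16 genes of the vacuolar proton pump (V-ATPase), 10 proteases, 9 glycosidases, 5 genes grouped as hydrolases of lipids or their activator proteins, and 5 membrane proteins. The granulin precursor GRN was placed in the lipid group, though it is described below as a precursor cut into granulins. Of the 45, 44 had a row in the expression table of 30741 genes. The protease LGMN was not analysed here.

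The cells are MOLM-13, a human acute myeloid leukaemia line with a rearranged KMT2A gene and an activating duplication within FLT3, labelled wild type for genotype. The TSN group is 3 libraries from cells given TSN at 20 nM, and the DMSO group is 3 libraries from cells given the solvent, both for 48 h. TSN is taken as toosendanin, the plant triterpenoid in the series title, which asks about its action on DDX5, MYC and protein synthesis. The labels call the libraries biological replicates, and all come from 1 line. Groups follow the sample titles, since the treatment field reads DMSO on all 6 samples. The 3 columns taken as DMSO do not carry that word and were assigned by elimination, as the titles name only TSN and DMSO, which limits every comparison below. If libraries of a group were not separate cultures, the p-values measure only the spread between these libraries.

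The V-ATPase is a rotary machine. Its V1 sector in the cytosol splits ATP and turns a shaft, and its V0 sector in the membrane moves protons into the lysosome. The acid medium activates cathepsins and other hydrolases, which reach the lysosome by way of sorting receptors, and membrane proteins such as LAMP1 and LAMP2 line and protect the organelle. Many of these genes carry in their promoters a palindrome around the letters CACGTG, known as the CLEAR element, through which TFEB, TFE3 and MITF act. The core of that element is also the E-box that MYC and MAX can bind. Lysosomes are abundant in monocytes and granulocytes, the lineages to which this line is related.

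Promoter windows are shown first, because this palindrome is the sequence that many lysosomal genes are known to share. A window of 250 bases before to 50 after the start of a gene was read from RefSeq on GRCh38.p14 for 32 of the 45 members. The 13 with no window are ATP6V0E1, ATP6V1A, ATP6V1B2, ATP6V1C1, ATP6V1H, LAMP2, CTSB, CTSS, LGMN, HEXA, MANBA, ASAH1 and PSAP. Below are 200 bases before and 30 after the start, 5′ to 3′ on the strand of the gene. The capitals mark each CACGTG with the bases around it that extend the palindrome, up to 10 bases where the CLEAR palindrome is complete. The first 3 hold the palindrome, and the last 3 belong to genes that rose after TSN and hold none. The windows lie at chr13:113297039-113297268 (plus strand) for LAMP1, chr19:7522424-7522653 (plus) for MCOLN1, chr16:67481128-67481357 (minus) for ATP6V0D1, chr11:6390274-6390503 (plus) for SMPD1, chr17:44345102-44345331 (plus) for GRN and chr6:143511691-143511920 (minus) for FUCA2.
LAMP1: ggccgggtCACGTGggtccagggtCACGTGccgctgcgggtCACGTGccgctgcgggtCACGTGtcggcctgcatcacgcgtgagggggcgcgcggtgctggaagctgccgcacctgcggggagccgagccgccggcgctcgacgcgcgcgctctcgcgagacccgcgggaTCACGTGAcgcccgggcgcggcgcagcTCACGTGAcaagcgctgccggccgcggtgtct
MCOLN1: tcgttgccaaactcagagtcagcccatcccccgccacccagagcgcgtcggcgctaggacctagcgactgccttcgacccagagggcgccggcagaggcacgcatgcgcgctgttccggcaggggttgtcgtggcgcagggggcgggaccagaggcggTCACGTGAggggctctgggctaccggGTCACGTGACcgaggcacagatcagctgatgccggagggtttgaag
ATP6V0D1: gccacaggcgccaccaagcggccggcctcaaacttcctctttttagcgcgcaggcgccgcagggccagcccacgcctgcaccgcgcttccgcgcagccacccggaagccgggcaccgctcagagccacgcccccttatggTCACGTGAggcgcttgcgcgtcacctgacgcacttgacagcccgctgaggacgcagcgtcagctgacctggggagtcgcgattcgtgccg
SMPD1: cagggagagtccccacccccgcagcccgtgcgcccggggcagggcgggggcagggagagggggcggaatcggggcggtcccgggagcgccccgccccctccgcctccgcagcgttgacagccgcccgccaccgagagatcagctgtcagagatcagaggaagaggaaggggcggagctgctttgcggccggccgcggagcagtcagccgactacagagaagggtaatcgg
GRN: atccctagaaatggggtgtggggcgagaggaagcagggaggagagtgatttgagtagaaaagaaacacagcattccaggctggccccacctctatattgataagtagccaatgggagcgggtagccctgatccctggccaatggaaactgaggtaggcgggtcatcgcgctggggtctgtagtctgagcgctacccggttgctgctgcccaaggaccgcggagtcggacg
FUCA2: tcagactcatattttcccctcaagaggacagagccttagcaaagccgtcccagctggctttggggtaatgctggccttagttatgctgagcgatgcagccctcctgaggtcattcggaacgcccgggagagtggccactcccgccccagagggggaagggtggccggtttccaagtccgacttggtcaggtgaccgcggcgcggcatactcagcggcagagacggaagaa

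Searched on both strands, which for a palindrome is 1 search, CACGTG stood in the windows of 10 of the 32 members (31.2%), against 8.77% of 27305 genes with a window and 13.1% of the 8345 of them that were tested for a change. The longer forms, each of which contains CACGTG, were rarer. TCACGTGA was found in 6 members (18.8%) and in 2.48% of genes tested, and the complete CLEAR palindrome of 10 bases in 3 members (9.38%) and in 0.995% of genes tested. Of 97 other lysosomal genes with a window, 24 (24.7%) held CACGTG. LAMP1 had 6 copies, the nearest beginning 2 bases before its start, and MCOLN1 had copies beginning 42 and 16 bases before. The remaining members with the letters were ATP6V0B, ATP6V0D1, ATP6V1G1, CD63, CTSA, CTSD, GAA and NEU1. A match describes letters in a window and is not evidence of binding.

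Estimated depth, from the step between low values of genes with 1 exon, was 37757500 to 50411000 fragments in TSN and 37159000 to 41645500 fragments in DMSO. The lowest fragment density among the tested members, in SCARB2 in TSN 3, corresponded to 109 fragments per kb of exon. Myeloid genes were present. MPO, the peroxidase of granules, stood at 1989 to 2041 FPKM in TSN and 3413 to 3668 FPKM in DMSO. SPI1 stood at 94.46 to 182.17 FPKM in TSN and 64.39 to 85.73 FPKM in DMSO. CEBPA went the other way, at 16.15 to 25.79 FPKM in TSN and 27.25 to 37.46 FPKM in DMSO. Neither SPI1 (0.69, limma adjusted p = 0.138) nor CEBPA (-0.68, limma adjusted p = 0.084) passed. LYZ overlapped between groups, CD33 and CSF3R were also present, and CD14 stayed below 1 FPKM. The 8 myeloid markers summed to 2187 to 2283 FPKM in TSN and 3575 to 3854 FPKM in DMSO, mostly MPO, which fell (limma adjusted p = 0.0221), while the integrin ITGAM rose by 1.57 on the log2 scale (limma adjusted p = 0.00789). Markers of other cells were mostly low, but TRAC, CD79B and KRT18 reached 79.89, 36.01 and 30.92 FPKM in TSN 3. Among these markers KRT18 (1.69, limma adjusted p = 0.0135), CD3D (0.76, limma adjusted p = 0.0251) and ITGA2B (0.68, limma adjusted p = 0.0209) rose on the log2 scale. CD3D had 2.31, 1.82 and 2.95 FPKM in TSN and 0.9622, 1.06 and 0.8924 FPKM in DMSO. It reached the level needed for a test, 1 FPKM in at least 3 libraries, mainly through TSN, so its call is not independent of that level. None of the tested markers of other cells fell past the threshold, and only KRT8 had a negative log2 fold change (-0.51, limma adjusted p = 0.149). CD2, too low to be tested, had 0.1014, 0.202 and 0.1354 FPKM in TSN and 0.7351, 0.7058 and 0.5504 FPKM in DMSO, wholly lower. PAX5 and COL1A1, also too low to be tested, were wholly higher in TSN. The 4 erythroid markers in the table summed to 0.18 to 0.536 FPKM in TSN and 0.356 to 0.886 FPKM in DMSO, and the 3 megakaryocyte markers to 3.35 to 5.15 FPKM in TSN and 2.34 to 2.81 FPKM in DMSO. The 5 T cell markers summed to 58.3 to 83.2 FPKM in TSN and 41.5 to 50.8 FPKM in DMSO, nearly all from TRAC, with CD3G at or near 0. The 4 B cell markers summed to 20.4 to 48.8 FPKM in TSN and 16.1 to 22.9 FPKM in DMSO, with PAX5 near 0. The 6 epithelial and fibroblast markers summed to 18.9 to 37.2 FPKM in TSN and 11.1 to 12.7 FPKM in DMSO, mostly from KRT18, with CDH1, COL1A1 and DCN at or near 0. The sums of the myeloid, T cell, megakaryocyte and epithelial and fibroblast markers lay apart between the groups, while the erythroid and B cell sums overlapped. Their part in the results below was not tested. Libraries also differed within groups. Over genes, r ranged from 0.913 (TSN 2 and TSN 3) to 0.982 (TSN 1 and TSN 2) within TSN. Within DMSO it ranged from 0.977 (DMSO 1 and DMSO 3) to 0.996 (DMSO 1 and DMSO 2). Every pair of a TSN and a DMSO library except TSN 3 with DMSO 3 (0.863) correlated more closely than TSN 2 with TSN 3. Those pairs ranged from 0.921 (TSN 3 and DMSO 2) to 0.956 (TSN 1 and DMSO 1). TSN 3 was the lowest of the TSN libraries in 61.9% of all genes tested.

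Part of the lysosomal genes rose after TSN. FPKM (fragments scaled to exon length and library size) were tested on the log2(FPKM + 1) scale with limma over all genes that reached 1 FPKM in at least 3 libraries, with a Benjamini-Hochberg adjusted p under 0.05 as the threshold. Of 40 members that reached the filter, 9 rose and 1 fell. That is 22.5% higher and 2.5% lower, beside 7.71% higher and 7.2% lower over all 11440 genes tested. The median log2 fold change of the 40 was 0.34, beside -0.10 over all genes, and 33 of the 40 were positive. The 3 TSN values lay wholly above the 3 DMSO values in 18 members and wholly below in 1, against 16.2% of all genes above and 22.9% below (39.2% in either direction). At an unadjusted p under 0.05, 17 members were higher and 1 lower, beside 30.8% of all genes in either direction. Since FPKM are relative to each library, more RNA per cell and a larger share of the RNA cannot be told apart, nor can fewer cells of a kind and less RNA in each. The 10 calls rest on few libraries: 0 of them passed in limma without TSN 1, DMSO 1, DMSO 2 or DMSO 3. In those fits 10 or 11 members were still higher at an unadjusted p under 0.05. Over all genes in those fits, 2364 to 2453 of 11074 to 11234 passed that level in either direction. With no filter on low genes, only ATP6V1H passed. Without TSN 3, 13 members rose and 1 fell, beside 1225 higher and 1288 lower of 11132 genes. The 9 that rose with all libraries were among the 13. Without TSN 2, 10 members rose and 1 fell, beside 739 higher and 1040 lower of 11021 genes. Of the 9, 7 were among the 10, CTSS (limma adjusted p = 0.0684) and GLA (limma adjusted p = 0.0621) no longer passing.

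**Figure D1:**
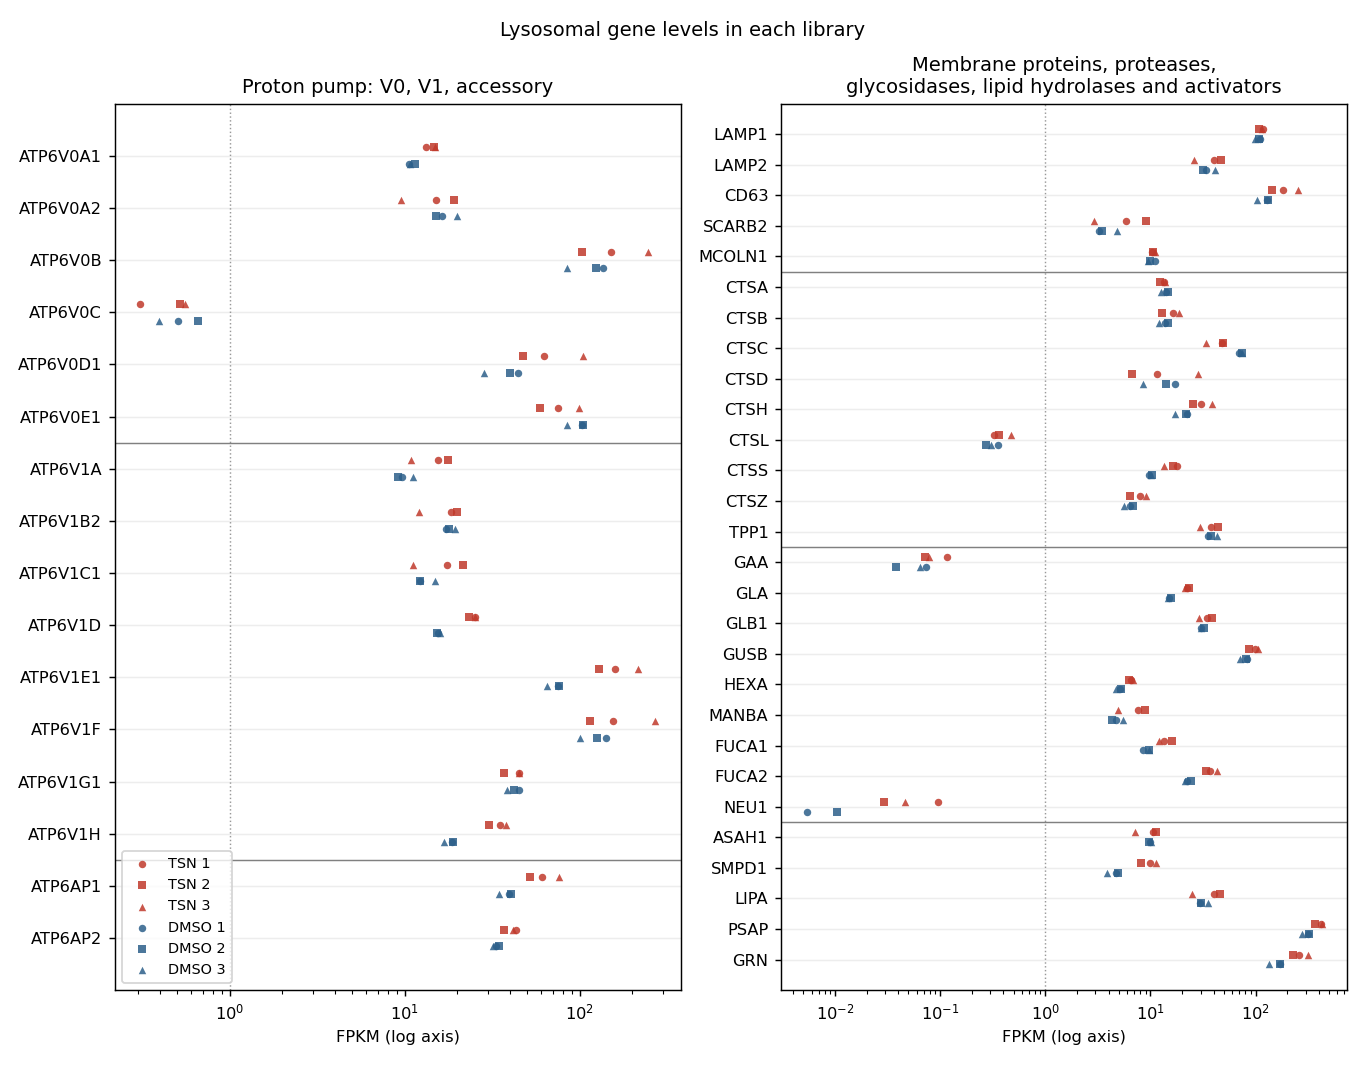
FPKM on a log axis for the 44 members in the table, TSN libraries in red above DMSO libraries in blue, with a symbol per replicate; the dotted line marks the filter of 1 FPKM, lines separate the roles, and the value of 0 for NEU1 in DMSO 3 cannot be drawn. ATP6V1E1, ATP6V1H and SMPD1 have their 3 TSN values to the right of all DMSO values, CTSC has them to the left, and 4 members lie below the filter.

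The V1 sector held the largest rise among the members. ATP6V1E1 encodes a subunit of the outer stalk that keeps the catalytic head from turning (chromosome 22, 17592136 to 17628818). It had 158.84, 128.23 and 214.46 FPKM in TSN libraries 1, 2 and 3, against 75.36, 76.41 and 64.88 FPKM in DMSO libraries 1, 2 and 3. Every TSN value was above every DMSO value, and the means were 167 ± 43.7 FPKM in TSN and 72.2 ± 6.38 FPKM in DMSO (SD, n = 3 each). The log2 fold change was 1.17 ± 0.21 (SE) with a limma adjusted p of 0.0174.

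ATP6V1H, a regulatory subunit at the joint of both sectors, had 35.05, 30.35 and 38.13 FPKM in TSN and 18.64, 18.85 and 16.84 FPKM in DMSO. The groups lay apart, the TSN mean being 1.91 times the DMSO mean, with a log2 fold change of 0.89 ± 0.14 and a limma adjusted p of 0.0107, the lowest among the members. ATP6V1D, part of the turning shaft (chromosome 14, 67294371 to 67360265), had 25.14, 23.18 and 25.24 FPKM in TSN and 15.42, 15.34 and 15.86 FPKM in DMSO. Both groups were tight, and the log2 fold change was 0.62 ± 0.12 with a limma adjusted p of 0.0194. Exons of ATP6V1D share 6.33% of their bases with EIF2S1 on the other strand, which cannot be separated without a stated use of strand.

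The other 5 subunits of V1 did not pass, and the catalytic head was among them. ATP6V1A, which carries the catalytic sites, had 15.55, 17.79 and 10.88 FPKM in TSN and 9.61, 9.16 and 11.17 FPKM in DMSO, with TSN 3 inside the DMSO range. ATP6V1B2, its partner in the head, had 18.51, 19.92 and 12.11 FPKM in TSN and 17.17, 17.87 and 19.31 FPKM in DMSO (log2 fold change -0.13 ± 0.20, limma adjusted p = 0.708). ATP6V1F, the V1 subunit of highest level, had 155.47, 114.03 and 270.65 FPKM in TSN and 141.01, 125.9 and 100.1 FPKM in DMSO, so that TSN 2 fell within the DMSO values (0.47 ± 0.33, limma adjusted p = 0.373). ATP6V1F shares 23.7% of its exon bases with KCP on the other strand. ATP6V1C1 (0.29) and ATP6V1G1 (0.02) completed the sector on the log2 scale.

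In V0, 0 of 5 subunits tested passed in limma in either direction, with 2 higher and 0 lower at an unadjusted p under 0.05. Over all genes, 14.9% passed and 30.8% had an unadjusted p under 0.05, in either direction. A difference between V1 and V0 was not tested. ATP6V0D1, which joins the shaft to the ring of the membrane sector, had 62.2, 47.32 and 105.0 FPKM in TSN and 44.31, 40.11 and 28.44 FPKM in DMSO. Its groups lay apart, but TSN ranged widely, and the log2 fold change of 0.85 ± 0.32 had a limma adjusted p of 0.129. ATP6V0B, a ring subunit and the V0 member of highest level, had 150.92, 102.91 and 247.04 FPKM in TSN and 135.46, 123.94 and 85.18 FPKM in DMSO, with overlap. ATP6V0E1, a small membrane subunit, had 75.44, 59.04 and 98.6 FPKM in TSN and 103.38, 104.4 and 84.43 FPKM in DMSO (-0.35 ± 0.21, limma adjusted p = 0.323). ATP6V0C, the main ring subunit, is listed at only 0.3086 to 0.5573 FPKM in TSN and 0.394 to 0.659 FPKM in DMSO, under the filter, while the other V0 subunits in the set stood at 9.52 FPKM or more in every library. Of its exon bases, 72.1% are shared with overlapping gene models on the same strand, so this value need not stand for the subunit.

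The a subunit of V0, which carries the path of the protons, is encoded by alternative genes. TCIRG1, the form first described in osteoclasts and not itself a member of the set, had 125.56, 103.1 and 191.78 FPKM in TSN and 89.49, 80.44 and 63.47 FPKM in DMSO, wholly apart (0.81 ± 0.26, limma adjusted p = 0.0891). ATP6V0A1 had 13.3, 14.68 and 14.97 FPKM in TSN and 10.55, 11.42 and 10.71 FPKM in DMSO, also apart without passing (0.36 ± 0.13, limma adjusted p = 0.113). ATP6V0A2 had 15.16, 19.12 and 9.52 FPKM in TSN and 16.39, 15.07 and 19.79 FPKM in DMSO, with overlap (-0.25 ± 0.26, limma adjusted p = 0.549). Of the summed FPKM of these 3 genes, TCIRG1 made up 81.5%, 75.3% and 88.7% in TSN and 76.9%, 75.2% and 67.5% in DMSO. It was the leading form in all 6 libraries, and its shares in the 2 groups overlapped. ATP6V0A4 was at or near 0 in all libraries.

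**Figure D2:**
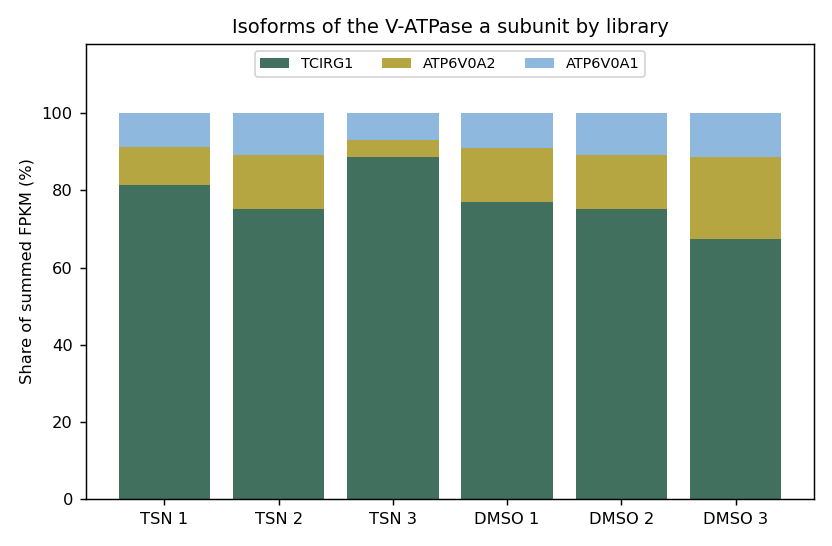
Stacked bars give the share (%) of TCIRG1, ATP6V0A2 and ATP6V0A1 in their summed FPKM in each library, TSN left and DMSO right. TCIRG1 is the largest part of every bar, from 75.3% to 88.7% in TSN and from 67.5% to 76.9% in DMSO.

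Of the accessory subunits, which help to assemble and guide the pump, ATP6AP1 rose (chromosome X, 154428632 to 154436516). It had 60.53, 52.27 and 76.09 FPKM in TSN and 39.71, 40.41 and 34.63 FPKM in DMSO, wholly apart, with a log2 fold change of 0.69 ± 0.17 and a limma adjusted p of 0.0426. Neither ATP6AP1 nor GRN passed after scaling libraries by their median log ratio. ATP6AP2 had 43.5, 36.78 and 41.53 FPKM in TSN and 33.35, 34.8 and 31.88 FPKM in DMSO, and its 0.27 ± 0.13 did not pass (limma adjusted p = 0.197). Over the whole pump, 4 of 15 subunits tested rose and 0 fell in limma, with 0 lower also at an unadjusted p under 0.05, beside 7.71% higher and 7.2% lower over all genes. The median log2 fold change of the pump was 0.47, beside -0.10 over all genes.

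**Figure D3:**
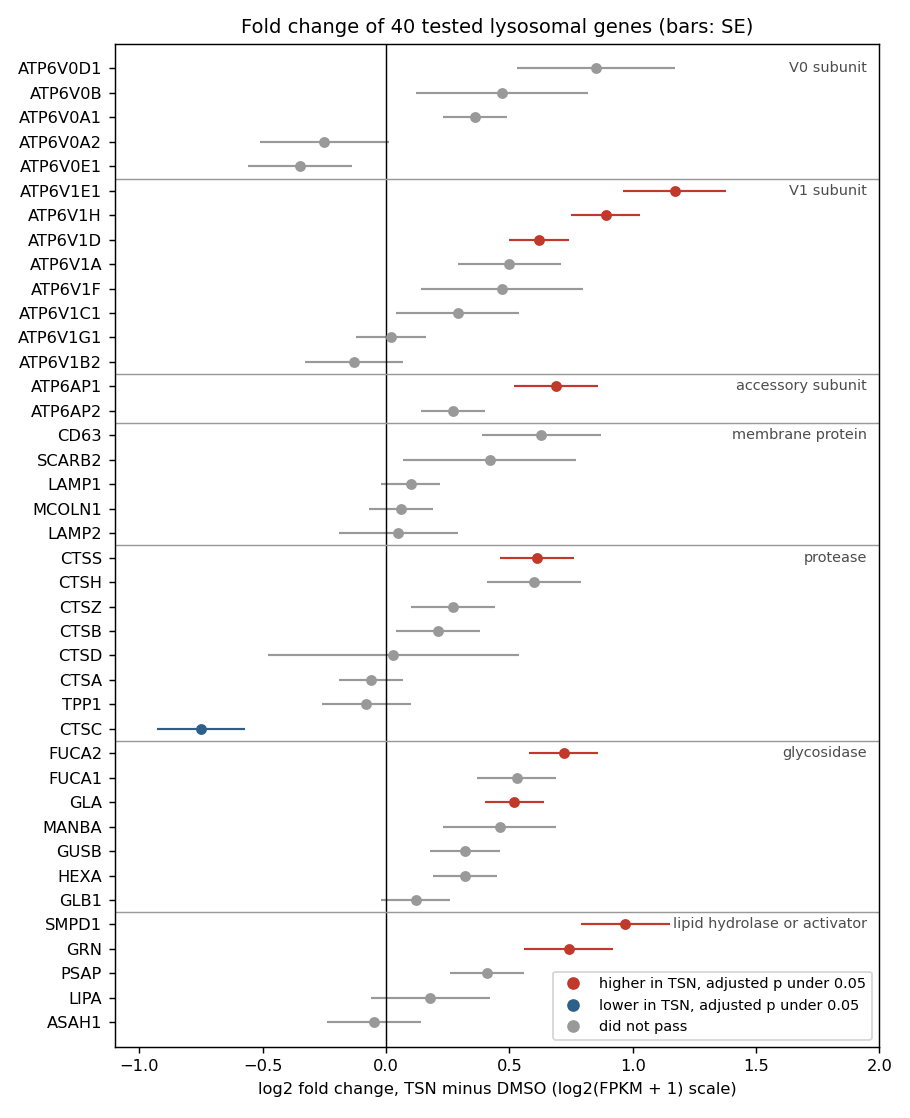
Points give the log2 fold change, TSN minus DMSO, of the 40 tested members on the log2(FPKM + 1) scale with SE as bars, ordered by size within each role. The 9 genes in red passed as higher, from 0.52 to 1.17, and CTSC in blue passed as lower at -0.75.

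Of 8 proteases tested, 1 rose and 1 fell (12.5% each, beside 7.71% higher and 7.2% lower over all genes). Cathepsin S was higher and cathepsin C lower after TSN, and the other 6 did not pass. CTSS, a cysteine protease that trims the invariant chain of MHC class II (chromosome 1, 150730196 to 150765957), had 18.02, 16.59 and 13.59 FPKM in TSN and 9.74, 10.43 and 10.23 FPKM in DMSO. The groups lay apart, with a log2 fold change of 0.61 ± 0.15 and a limma adjusted p of 0.0416. CTSC, which activates the serine proteases of granules (chromosome 11, 88293592 to 88337787), had 48.32, 48.99 and 33.59 FPKM in TSN and 70.33, 73.92 and 74.82 FPKM in DMSO. All TSN values were below all DMSO values, and the log2 fold change was -0.75 ± 0.18 with a limma adjusted p of 0.0362. CTSC was the protease of highest level in DMSO, at 73 ± 2.37 FPKM, against 43.6 ± 8.7 FPKM in TSN. It no longer passed once the trend of each library with exon length and GC content was removed, an alternative added after the data were seen (-0.50, limma adjusted p = 0.0545).

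CTSH, an aminopeptidase, had 30.45, 25.59 and 38.87 FPKM in TSN and 22.07, 21.6 and 17.33 FPKM in DMSO, apart but not past the threshold (limma adjusted p = 0.0861). CTSD, an aspartic protease, spread most, with 11.44, 6.68 and 28.2 FPKM in TSN and 17.25, 13.96 and 8.6 FPKM in DMSO. With a log2 fold change of 0.03 ± 0.51, a change in either direction was not detectable at this spread, and 52.7% of its exon bases overlap other gene models. CTSA, CTSB, CTSZ and TPP1 ranged from -0.08 to 0.27 on the log2 scale without passing. CTSL stood under the filter, at 0.3243 to 0.4676 FPKM in TSN and 0.2721 to 0.3543 FPKM in DMSO.

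Among glycosidases all 7 tested had a positive log2 fold change, as had 4784 of the 11440 genes tested. Of the 7, 2 rose and 0 fell (28.6% and 0%, beside 7.71% and 7.2% over all genes). FUCA2, an alpha-L-fucosidase (chromosome 6, 143494811 to 143511690), had 37.23, 33.53 and 43.11 FPKM in TSN and 22.25, 24.09 and 21.33 FPKM in DMSO, a log2 fold change of 0.72 ± 0.14 with a limma adjusted p of 0.0216. Its exons share 16.9% of their bases with genes on the other strand. GLA, the galactosidase lacking in Fabry disease (chromosome X, 101397803 to 101408012), had 22.41, 23.1 and 21.24 FPKM in TSN and 15.17, 15.77 and 14.55 FPKM in DMSO. Both groups of GLA were tight and apart (0.52 ± 0.12, limma adjusted p = 0.0331).

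The related fucosidase FUCA1 had 13.58, 16.13 and 12.0 FPKM in TSN and 8.43, 9.79 and 9.62 FPKM in DMSO, also apart but with a limma adjusted p of 0.0716. GUSB, a glucuronidase and the glycosidase of highest level, had 98.94, 87.31 and 105.59 FPKM in TSN and 82.45, 80.6 and 70.64 FPKM in DMSO (0.32 ± 0.14, limma adjusted p = 0.18). In all, 5 of the 7 glycosidases had TSN values wholly above DMSO values, against 16.2% of all genes. GLB1 was nearest to 0, at 0.12 ± 0.14. HEXA, at 0.32 ± 0.13, did not pass (limma adjusted p = 0.157). GAA and NEU1 stood under the filter: GAA at 0.0722 to 0.1164 FPKM in TSN and 0.0384 to 0.0733 FPKM in DMSO, and NEU1 at 0.0294 to 0.0945 FPKM in TSN, with DMSO values of at most 0.0104 FPKM and DMSO 3 listed at 0.

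Of 5 lipid hydrolases and activators, with GRN placed among them, 2 rose and 0 fell (40% and 0%, beside 7.71% and 7.2% over all genes). SMPD1, the acid sphingomyelinase (chromosome 11, 6390431 to 6394998), had 9.99, 8.14 and 11.43 FPKM in TSN and 4.75, 4.94 and 3.85 FPKM in DMSO. Its log2 fold change of 0.97 ± 0.18 was the second largest rise among members that passed (limma adjusted p = 0.0171). GRN, progranulin, a precursor cut into granulins in the lysosome (chromosome 17, 44345086 to 44353102), had 257.94, 225.37 and 313.05 FPKM in TSN and 170.78, 170.37 and 134.26 FPKM in DMSO. The groups lay apart, with 0.74 ± 0.18 and a limma adjusted p of 0.0435.

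PSAP, the precursor of the saposins that hand sphingolipids to their hydrolases, was the most abundant member, at 419.43, 366.01 and 426.2 FPKM in TSN and 317.94, 320.72 and 275.01 FPKM in DMSO. It too lay wholly apart, yet 0.41 ± 0.15 had a limma adjusted p of 0.125. ASAH1, the acid ceramidase that acts on the product of SMPD1, had 10.63, 11.42 and 7.18 FPKM in TSN and 9.99, 9.77 and 10.07 FPKM in DMSO (-0.05 ± 0.19, limma adjusted p = 0.883). LIPA, which frees cholesterol from its esters, had 40.56, 46.22 and 24.85 FPKM in TSN and 29.57, 30.51 and 35.57 FPKM in DMSO, with overlap (0.18 ± 0.24, limma adjusted p = 0.662).

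None of the 5 membrane proteins passed in limma in either direction, with 1 higher and 0 lower at an unadjusted p under 0.05. The shares over all genes were 14.9% and 30.8%, in either direction. CD63, a tetraspanin of late endosomes, had 183.0, 142.57 and 252.56 FPKM in TSN and 128.49, 132.52 and 102.47 FPKM in DMSO, apart with a limma adjusted p of 0.129. LAMP1 had 118.12, 107.58 and 115.55 FPKM in TSN and 110.56, 108.12 and 98.83 FPKM in DMSO, with overlap (0.10 ± 0.12, limma adjusted p = 0.614). LAMP2 had 40.51, 46.5 and 25.97 FPKM in TSN and 33.68, 31.84 and 41.24 FPKM in DMSO (0.05 ± 0.24, limma adjusted p = 0.911). MCOLN1, the calcium channel whose promoter holds 2 copies of the palindrome, had 10.26, 10.51 and 10.96 FPKM in TSN and 11.04, 9.95 and 9.45 FPKM in DMSO (0.06 ± 0.13, limma adjusted p = 0.805). SCARB2, a receptor for glucocerebrosidase, ranged from 2.88 to 9.02 FPKM in TSN and from 3.28 to 4.82 FPKM in DMSO.

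Set beside the promoters, 0 of the 7 members that rose and had a window held CACGTG: SMPD1, GRN and FUCA2, printed above, with ATP6AP1, ATP6V1D, ATP6V1E1 and GLA. Of the 20 members that were tested, had a window and did not pass, 8 held it (40%), beside 13.1% of all genes tested. On the log2 scale these 8 were ATP6V0D1 (0.85), CD63 (0.63), ATP6V0B (0.47), LAMP1 (0.10), MCOLN1 (0.06), CTSD (0.03), ATP6V1G1 (0.02) and CTSA (-0.06). ATP6V0D1 and CD63 had TSN values wholly above DMSO values. Over all genes with a window, 70 of 626 that rose (11.2%) and 110 of 618 that fell (17.8%) held it. These are counts with no test, in windows that cover only the nearest part of a promoter, and nothing is drawn from them about any factor. TFEB itself had 4.55, 3.79 and 7.37 FPKM in TSN and 4.56, 3.68 and 3.43 FPKM in DMSO (0.32 ± 0.24, limma adjusted p = 0.413), and MITF stayed under the filter in all libraries. TFE3 was not analysed here.

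Which TSN library was highest differed with the GC content and length of the member. TSN 3 was the highest TSN library in 23 of the 40 members and the lowest in 15. In all genes tested, it was the highest in 30.7% and the lowest in 61.9%. The 23 had a median GC content of 54.3% and a median exon length of 3680 bases, while the 15 had 40.6% and 5851 bases. ATP6V0B, ATP6V1F and CTSD are among the 23, and LAMP2, ATP6V1A and LIPA among the 15. Of the 9 members that rose, 7 were highest in TSN 3 and lowest in TSN 2, and 7 were lowest in DMSO 3 of the DMSO libraries. Over the 40 members, 57.5% were lowest in TSN 2 and 60% lowest in DMSO 3. Over all genes tested, these shares were 33.2% and 39.6%. Leaving out both TSN 3 and DMSO 3 gave 15 members higher and 2 lower, beside 1477 higher and 1501 lower of 10790 genes. Removing the trends with GC content and exon length gave 15 members higher and 0 lower, beside 1667 and 1713 of 11242 genes. All 9 that rose in the full comparison passed in both, and the members added in both were ATP6V1A, ATP6V1C1, FUCA1, MANBA and SCARB2.

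**Figure D4:**
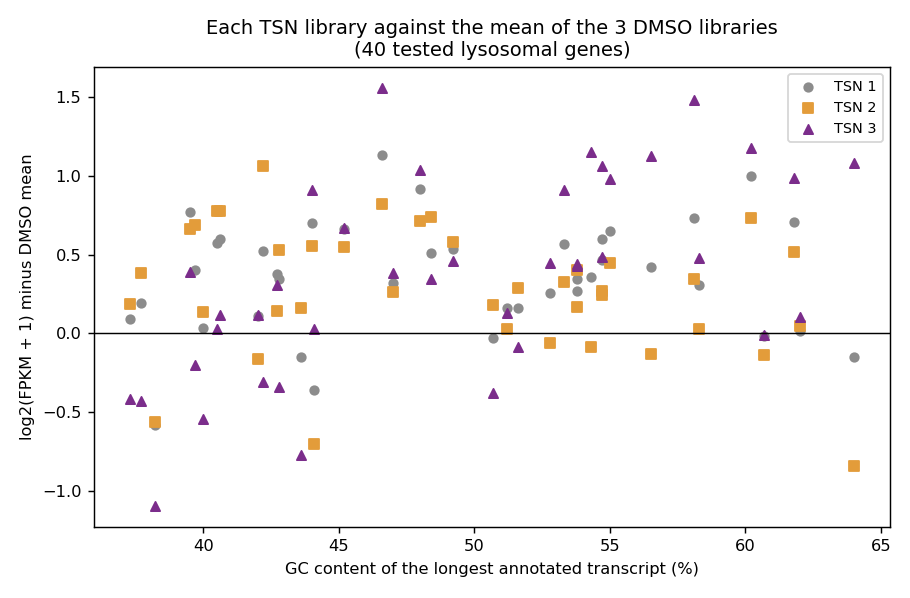
For each of the 40 tested members, log2(FPKM + 1) in TSN 1 (grey circles), TSN 2 (orange squares) and TSN 3 (purple triangles) minus the mean of the 3 DMSO libraries, against GC content (%) of the longest annotated transcript. TSN 3 tends to lie below the other TSN libraries at low GC content and above them at high GC content; the members lowest in TSN 3 had a median GC content of 40.6% and those highest in it 54.3%.

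Beyond the 45 genes, lists of other lysosomal genes were grouped by function. Of 96 other lysosomal genes tested, from 129 listed, 8 rose and 2 fell (8.33% and 2.08%, beside 7.71% and 7.2% over all genes), with a median log2 fold change of -0.05. Among other hydrolases and activators, 4 of 29 rose (13.8%, beside 7.71% over all genes) and 0 fell. NPC2, which hands cholesterol to NPC1, had 39.43, 29.17 and 63.39 FPKM in TSN and 17.21, 15.7 and 13.65 FPKM in DMSO (1.38 ± 0.28, limma adjusted p = 0.0256). NPC1 itself had 10.28, 16.35 and 5.04 FPKM in TSN and 3.98, 4.34 and 6.85 FPKM in DMSO, with overlap (limma adjusted p = 0.219).

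The iduronidase IDUA rose by 0.73 ± 0.17 and cathepsin F, CTSF, by 0.84 ± 0.20 on the log2 scale. CTSF had 2.15, 1.8 and 3.29 FPKM in TSN and 1.15, 0.8749 and 0.6509 FPKM in DMSO. It met the filter mainly through TSN, where it is high, so its call is not independent of the filter. Of 25 membrane proteins and transporters, the peptide and histidine transporter SLC15A3 (0.85 ± 0.16) and LAPTM4B (0.55 ± 0.14) rose. In that list 8% were higher and 8% lower, beside 7.71% and 7.2% over all genes. SLC15A3 had 1.37, 1.24 and 2.08 FPKM in TSN and 0.497, 0.4772 and 0.2645 FPKM in DMSO. It met the filter of 1 FPKM only through TSN, where it is high, so its call is not independent of the filter. The amino acid transporter SLC36A1 (-0.99 ± 0.21) and the cation channel TPCN2 (-0.79 ± 0.20) fell. SLC36A1 had 0.6496, 1.02 and 0.3074 FPKM in TSN and 1.75, 2.2 and 2.87 FPKM in DMSO, and met the filter mainly through DMSO.

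In the cell's delivery route, 0 of 14 sorting genes passed in limma in either direction, with 0 also at an unadjusted p under 0.05. Over all genes, 7.71% passed as higher and 7.2% as lower, and 30.8% had an unadjusted p under 0.05 in either direction. These shares stand beside each list in this paragraph. The mannose 6-phosphate receptor M6PR had 42.96, 56.33 and 17.03 FPKM in TSN and 48.27, 49.98 and 63.8 FPKM in DMSO, and CREG1 averaged 93.8 ± 18.7 FPKM in TSN and 84.8 ± 1.79 FPKM in DMSO (SD, n = 3 each). Among 9 other pump subunits and assembly factors, 0 passed in limma, with 1 higher and 2 lower at an unadjusted p under 0.05. The assembly factor VMA21 averaged 26 ± 2.11 FPKM in TSN and 25.8 ± 1.77 FPKM in DMSO. Of 5 inhibitors of cathepsins and granule proteases, SERPINB1 rose (0.61 ± 0.14, limma adjusted p = 0.0331), and of 14 regulators and genes of the Ragulator and Rag complexes, the GTPase RRAGD rose (0.58 ± 0.14, limma adjusted p = 0.0414). RRAGD had 10.46, 11.35 and 9.05 FPKM in TSN and 6.53, 6.53 and 6.52 FPKM in DMSO.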

How the data were processed

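The authors deposited 1 table of gene values, read as FPKM from the values because the table names no unit. GRCh38 and DESeq2 1.26.0 are named per the submitters' processing notes, while the aligner, counter, strand setting and annotation are not given in sources used here. FPKM are not counts, so limma 3.58.1 in R 4.3.3 was fitted to log2(FPKM + 1) in all 6 libraries with a variance trend and robust moderation, for genes of at least 1 FPKM in at least 3 libraries, with p-values adjusted over all 11440 genes. Fold changes on that scale understate those of low genes. Depth was estimated from genes with 1 exon, where 96.3% to 96.8% of low values were whole multiples of a step within 0.1 of a fragment, and covers counting error only. Exons, lengths and GC content came from GENCODE 29, which held 93.7% of the identifiers. Summaries used Python 3.11.15 (numpy 2.4.6, pandas 2.3.3) and figures matplotlib 3.10.9. The fit was tested on simulated data. The members and lists were chosen with earlier results of these data known. All members are accounted for, those past the threshold in full, others as the extremes or highest level of a role; of other lists, up to 3 per direction of lowest adjusted p, or 2 of highest mean, with TCIRG1, TFEB and MITF always named. Members shown for their promoters, NPC1, and others named beyond this rule were chosen after their values were seen. 1 further gene of the other lists is counted but not reported here by name.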

Additional observations from a re-analysis of the deposited data

How the results depend on the processing

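Every log2 fold change of the 10 members called kept its sign in all alternatives run. Pseudocounts of 0.1 and 0.01 and plain moderation left 9 members higher and 1 lower; the other lysosomal genes lower fell to 1 with either pseudocount. With no filter 777 genes passed, 1 member was higher and 0 lower, and 2 other lysosomal genes were higher and 0 lower. With a mean of at least 5 FPKM, 1002 genes passed, and 0 other lysosomal genes were lower. Scaling by the median log ratio kept 7 of the 9 and moved the median log2 fold change of the members to 0.45, and that of all genes to 0.00 in place of -0.10. Quantile normalization gave 14 other lysosomal genes higher and 4 lower, beside 1172 higher and 1080 lower of all 11440 genes. Library weights called 7079 genes, 27 members higher and 2 lower, and 34 other lysosomal genes higher and 23 lower. Leaving out TSN 3 and DMSO 3 called 2978 genes, 15 members higher and 2 lower, and 20 other lysosomal genes higher and 6 lower. Removing the trend with exon length and GC content, chosen after seeing the data, called 3380 genes, 15 members higher and 0 lower, and 22 other lysosomal genes higher and 8 lower. The causes were not tested.

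Leaving out 1 library at a time gave 24 (without TSN 1) to 2513 (without TSN 3) genes, 0 to 13 members higher, 0 to 1 lower, 0 to 18 other lysosomal genes higher and 0 to 5 lower, with member medians of 0.31 to 0.36. The counts of members were 0 without TSN 1, DMSO 1, DMSO 2 or DMSO 3. Whether the replicate numbers pair the libraries was not settled. Deviations of same-numbered libraries correlated at -0.317, -0.646 and -0.835. The DMSO numbers come from column names alone, and such correlations cannot show whether cultures were paired. With the replicate block, 0 genes, members and other lysosomal genes passed in limma, with 2121 genes, 9 members higher and 1 lower at an unadjusted p under 0.05. Depth limits most the members under the filter, such as NEU1.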
